A study of Homo sapiens with 36 samples.

Results

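The genes described here are the expressed members of the ZNF-named zinc finger family in MDA-MB-231 cells, an established line from a human breast cancer without hormone receptors or HER2. They are the symbols made of ZNF, a number and at most 1 letter whose mean over 12 total RNA libraries was at least 10 CPM (the count divided by the library total and scaled to 1e+06). This rule took 141 of the 529 ZNF-named symbols in the files, which held 26485 symbols in all. The mean level in total RNA therefore chose the members, and those levels are given below without a test. Of the 141, 138 are coding genes and 3 (ZNF252P, ZNF271P and ZNF788) are transcribed pseudogenes in RefSeq.

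The series compared 4 lines that differ in isoleucine tRNAs, to examine which transcripts are highly translated when the balance between these tRNAs is shifted. Every line carried a CRISPR interference construct, which represses transcription, and an overexpression construct. The control line had interference against eGFP and a control overexpression construct, and the line called UAU had the same interference with overexpression of tRNAIleUAU, an isoleucine tRNA named by its anticodon. The line called GAUi had interference against the isoleucine tRNA with the GAU anticodon together with the control overexpression construct, and the isoswitch line had both changes. All 4 lines were given 100 ug/mL cycloheximide for 5 minutes, which holds ribosomes on mRNA, and were then frozen. The source label of the samples reads xenograft cell line, and the labels name no clone or pool of cells. From each line, total RNA was compared with 2 polysome fractions: a light fraction with the 80S monosome and the first polysome peak, and a heavy fraction with heavier polysomes. There were 3 libraries (A, B and C) for each of the 12 groups, made with a kit that reads the 3' ends of polyadenylated RNA.

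A C2H2 zinc finger is a short fold held by a zinc ion, and arrays of such fingers read DNA, or in some proteins RNA. Most ZNF-named genes code for such arrays, and the largest class couples them to a KRAB domain, which recruits the corepressor TRIM28 and through it heterochromatin enzymes to silence transposable elements and other targets. KRAB zinc finger genes lie in clusters, above all on chromosome 19, and their mRNAs are known for low levels. Other members have taken up different work, in ribosome assembly, in the response to stalled ribosomes, in splicing and at the kinetochore. An mRNA with many ribosomes sediments in the heavy fraction, so the ratio between the fractions reads ribosome loading, and it also reflects the length of the coding sequence.

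Library totals ran from 6679340 to 8973050 counts in total RNA, from 5310594 to 8234332 in the light fraction and from 5192464 to 8974001 in the heavy fraction. The 141 genes together had 20705 to 45895 counts in a library, and the lowest count of any of them in any library was 18. Light library B of the control line stood apart from its replicates, with chi-square values per degree of freedom of 13.7 to 15.8, and the 3 total RNA libraries of GAUi differed among themselves by 8.53 to 23.8. All other pairs of replicates lay between 1.79 and 9.29. The mesenchymal marker VIM was at 2749 to 3720 CPM in total RNA, while ESR1 and CDH1, which this line lacks, were at 0 to 0.369 CPM. ESR1 and CDH1 came from a list of 7 hormone receptor and luminal genes, which summed to 38.2 to 48.7 CPM in total RNA. EPCAM, also on that list, was at 10.8 to 17.7 CPM there. The rest of the list, which includes ERBB2 (the HER2 gene), is not given gene by gene, so a lack of HER2 mRNA is not shown here. Summed over total RNA libraries, 7 fibroblast markers reached 2.2 to 5.68 CPM, 6 leukocyte markers 5.17 to 10.6 CPM and 5 endothelial markers 2.52 to 5.00 CPM.

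Most expressed ZNF mRNAs were scarce. Their means over the 12 total RNA libraries ran from 10.0 to 190.3 CPM with a median of 20.1, against a median of 44.7 CPM for all 8442 genes above the same limit. Of the 141, 70 were under 20 CPM and 6 were over 100 CPM. The most abundant was ZNF22 (190.3 CPM), followed by ZNF395 (166), ZNF428 (140), ZNF106 (128), ZNF146 (122) and ZNF207 (109.6). ZNF24, ZNF451, ZNF706 and ZNF131 completed the first 10, at 96.7, 88.7, 85.9 and 76.5 CPM. Just inside the limit were ZNF302 (10.3), ZNF524 (10.2) and ZNF718 (10.0), and just outside it ZNF585A (9.95), ZNF746 (9.83) and ZNF704 (9.77). Chromosome 19 held 43 of the 141 (30.5%) and 253 of all 529 ZNF-named symbols (47.8%).

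The promoters of 122 coding members could be read from RefSeq (GRCh38.p14, 250 bases before to 50 after the annotated start), and 5 of them held a rare sequence that is bound by the product of another member, ZNF143. This core, ACTACAATT, was searched on both strands, and it was present in 4.10% of the members' promoters, in 0.705% of 6527 promoters of coding genes at 10 CPM or more and in 0.461% of all 15842 coding promoters. The windows below show it in capitals, in either orientation, with 80 bases 5′ to 3′ on the strand of the gene.
ZNF140 (chr12:133080673-133080752, plus strand): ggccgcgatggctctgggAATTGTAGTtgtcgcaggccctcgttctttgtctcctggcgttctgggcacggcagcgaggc
ZNF180 (chr19:44500527-44500606, minus strand): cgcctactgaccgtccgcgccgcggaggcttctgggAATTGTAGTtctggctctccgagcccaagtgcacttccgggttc
ZNF277 (chr7:112206462-112206541, plus strand): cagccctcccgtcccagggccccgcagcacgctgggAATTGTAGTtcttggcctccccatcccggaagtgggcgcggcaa
ZNF317 (chr19:9140281-9140360, plus strand): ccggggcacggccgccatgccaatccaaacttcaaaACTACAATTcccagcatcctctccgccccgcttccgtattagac
ZNF451 (chr6:57089959-57090038, plus strand): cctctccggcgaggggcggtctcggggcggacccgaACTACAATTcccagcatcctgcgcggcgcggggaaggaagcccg
The start that RefSeq's promoter of ZNF140 is built on lies 498 bases inside the annotated span of the gene, while in the other 4 it is where transcription of the span begins. A match is a description of these letters and not a measured binding site. Of 4 other motifs searched on both strands, CCGGAAGT (an ETS site core) was in 17.2% of the members' promoters, 10.6% of expressed and 6.19% of all coding promoters, and ZNF180 and ZNF277 held it as well. TGACGTCA, the cAMP response element, was in 6.56%, 3.71% and 2.59%, and GCGCATGCG, the core of the NRF1 site, was in 4.92%, 4.32% and 2.76%. TATAAA, the TATA box, was in 2.46% of the members' promoters, 4.75% of expressed and 9.63% of all coding promoters. The median GC content of the windows was 63.8%, 65.7% and 62.7% in the same order.

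The members took a larger share of the light fraction than of total RNA, and a smaller share of the heavy fraction. Their summed level was 4378 to 4589 CPM in the 12 total RNA libraries, 5300 to 5712 CPM in the 12 light libraries and 3771 to 4222 CPM in the 12 heavy libraries. The 3 ranges did not overlap, in any line. In control cells the median ratio of light to total RNA over the members was 1.14, with 90 of 141 above 1, and the median ratio of heavy to total RNA was 0.891, with 53 above 1. ZNF358 had the highest light ratio (3.31) and ZNF622 the lowest (0.331), and for the heavy ratio ZNF428 was highest (2.16) and ZNF219 lowest (0.438). These ratios are descriptions, since total RNA levels chose the members.

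Between the 2 fractions, which the choice of members did not use, the ZNF mRNAs lay towards the light side. In control cells 71 of the 141 were lower in the heavy than in the light fraction and 20 were higher, with calls made where edgeR's quasi-likelihood test over all genes gave an adjusted p below 0.05. Of all 12266 genes tested 33.2% were lower and 32.8% were higher (66% called), and of the 7460 genes in the CPM range of the members 31.9% were lower and 39.8% were higher (71.7% called). The median log2 fold change was -0.36 for the members, -0.01 for all genes tested and 0.09 for genes of the same CPM range. The 3 heavy and 3 light libraries did not overlap for 84 of the called members, of which 64 were lower and 20 higher, where 29.7% and 32.1% of all genes tested were called lower and higher without overlap. Without light library B 97 members were called, 70 lower and 27 higher. In the plot of heavy against light in control cells, the lower genes spread over the whole range of abundance, and across the members the fold change had a Pearson r of 0.07 with log10 abundance and of 0.10 with log10 gene length in the genome. These 2 correlations are over 141 genes that share the same libraries, and coding length was not analysed here.

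**Figure D1:**
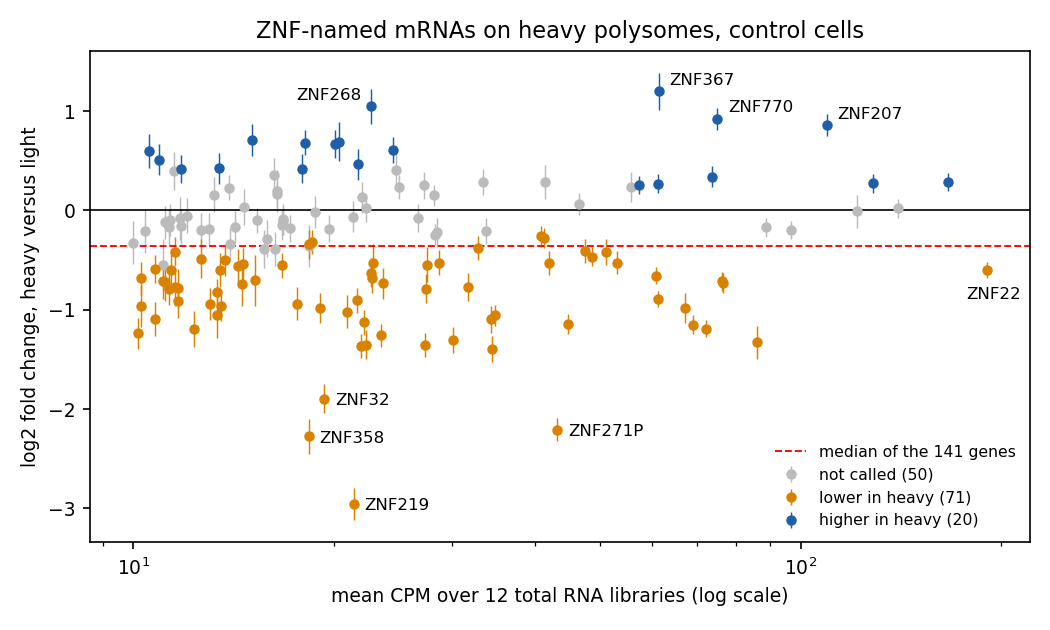
Log2 fold change between heavy and light fraction in control cells (y, bars are SE, 3 libraries a fraction) against mean level in total RNA (x, CPM, log scale), 1 point for each of the 141 ZNF genes, with 71 lower (orange), 20 higher (blue) and 50 not called (grey). Most points lie below 0 with a median of -0.36, though 4 of the 6 over 100 CPM lie above 0, and ZNF219, ZNF358, ZNF271P and ZNF32 lie lowest.

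The members were grouped by known role from general knowledge, after their values had been seen. Levels of single genes are CPM with TMM library scaling. Of 8 members that act on RNA, ribosomes or the spindle, 2 were higher in the heavy fraction of control cells, 3 were lower and 3 were not called. Their median log2 fold change was 0.24. Of all 12266 genes tested 32.8% were higher and 33.2% lower. ZNF207 (chr17:32350157-32381885, GRCh38.p14), which loads the checkpoint protein BUB3 onto kinetochores, had 53.5, 40.1 and 42.9 CPM in light libraries A, B and C and 97.6, 82.5 and 79.0 CPM in the heavy libraries. Every heavy library was above every light library (log2 fold change 0.86, SE 0.12, adjusted p = 8.79e-06, edgeR). ZNF622, a factor that matures the large ribosomal subunit, was at 7.29, 6.84 and 4.80 CPM in the light libraries and at 10.1, 9.29 and 13.1 CPM in the heavy ones (log2 fold change 0.69, SE 0.20, adjusted p = 0.00598, edgeR). The ubiquitin ligase of collided ribosomes, ZNF598, fell by 0.28 on the log2 scale, the splicing-linked ZNF326 by 0.41 and the RNA-binding ZNF638 by 0.53. The pre-ribosome factor ZNF593, the double-stranded RNA binder ZNF346 and ZNF830 were not called, with log2 fold changes of 0.23, 0.41 and 0.24.

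Of 8 partners of chromatin complexes and other nuclear cofactors, 5 were lower in the heavy fraction of control cells and none was higher. The shares over all genes tested were 33.2% lower and 32.8% higher. ZNF217, an oncogene amplified in breast cancers, was at 21.9, 26.1 and 26.9 CPM in the light libraries and at 12.11, 11.78 and 11.99 CPM in the heavy ones. The fractions did not overlap (log2 fold change -1.13, SE 0.13, adjusted p = 1.77e-06, edgeR). ZNF335, a chromatin regulator needed in neural progenitors, fell by 1.10 and ZNF644, a partner of the methyltransferases EHMT1 and EHMT2, by 0.71. ZNF703, another breast cancer oncogene, fell by 0.53 and ZNF609 by 0.37, all on the log2 scale. The SUMO ligase ZNF451, ZNF503 and ZNF512B were not called.

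Among 8 DNA-binding members without a KRAB domain, 3 were lower, 2 were higher and 3 were not called. Over all genes tested 33.2% were lower and 32.8% higher. The lowest value of all 141 members was in this group. ZNF219 (chr14:21090077-21104722) had 63.3, 92.5 and 66.9 CPM in the light libraries of control cells and 10.6, 8.46 and 11.1 CPM in the heavy ones. Even the highest heavy library was far below the lowest light library (log2 fold change -2.95, SE 0.16, adjusted p = 5.84e-10, edgeR). Its total RNA stood between the fractions, at 21.1, 22.6 and 25.2 CPM. The annotated span of ZNF219 overlaps ARHGEF40, which is also detected, and the strand setting of the counting is not given in the sources used here, so the split of reads between overlapping genes is uncertain. ZNF76, a close relative of ZNF143, fell by 1.06 and ZNF281 by 0.98, while ZNF148 was higher by 0.34 and ZNF652 by 0.60. ZNF143 itself was not called (log2 fold change -0.39, adjusted p = 0.0818, edgeR), like ZNF24 and ZNF410.

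The 52 members listed as carrying a KRAB domain were lower in the heavy fraction of control cells in 27 cases and higher in 6. Their median log2 fold change was -0.49. Beside them, 33.2% of all genes tested were lower and 32.8% higher. A difference between KRAB-domain and other members was not tested. ZNF331, an imprinted gene, had 38.0, 40.7 and 40.5 CPM in the light libraries and 17.5, 13.9 and 17.1 CPM in the heavy ones. The fractions did not overlap (log2 fold change -1.37, SE 0.12, adjusted p = 6.95e-08, edgeR), and ZNF544 (-1.31), ZNF3 (-1.26) and ZNF480 (-1.14) were also among the lowest of this class. ZNF268 went the other way, with 12.6, 7.20 and 11.7 CPM in the light libraries and 22.51, 23.98 and 21.79 CPM in the heavy ones. All heavy values of ZNF268 lay above all light values (log2 fold change 1.05, SE 0.18, adjusted p = 0.0001, edgeR), and ZNF777, ZNF569, ZNF264, ZNF263 and ZNF37A were the other KRAB-domain members called higher. The 43 members on chromosome 19 had 22 lower and 4 higher, beside 49 lower and 16 higher of the 98 members elsewhere.

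The other extremes were members to which no role is assigned here. ZNF358 (chr19:7513880-7521025) had 55.5, 77.5 and 57.5 CPM in the light libraries of control cells and 14.1, 11.8 and 15.6 CPM in the heavy ones, with a log2 fold change of -2.27. The pseudogene transcript ZNF271P had 86.0, 110.4 and 89.1 CPM in the light libraries and 22.3, 21.6 and 20.7 CPM in the heavy ones, with a log2 fold change of -2.21. ZNF32 fell by 1.90, ZNF576 by 1.40, the pseudogene ZNF252P by 1.35 and ZNF362 by 1.35 on the log2 scale. The third pseudogene member, ZNF788, had a log2 fold change of -0.34 and was called in no line. A separate set of 18 host genes of small nucleolar RNAs, listed as non-coding, was lower in all 18 cases, with a median of -3.26. Whether ribosomes engage these RNAs was not tested. On the heavy side, ZNF367, a DNA-binding factor, was highest, with 32.88, 16.01 and 29.51 CPM in the light libraries and 71.6, 63.1 and 53.2 CPM in the heavy ones. ZNF367 had its lowest light value in library B, and the groups did not overlap (log2 fold change 1.20, SE 0.18, adjusted p = 3.66e-05, edgeR). ZNF770 (0.93), ZNF629 (0.71) and ZNF740 (0.68) followed. The annotated spans of ZNF32, ZNF362, ZNF252P, ZNF740, ZNF3 and ZNF207 also overlap another detected gene, and 29 of the 141 members do in all.

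Zinc finger genes with other names, such as the KLF and ZBTB families, were counted for comparison. Of 36 such genes at 10 CPM or more, 14 were lower and 5 were higher in the heavy fraction of control cells, with a median log2 fold change of -0.14. Of 388 ZNF-named genes below the 10 CPM limit, 254 passed the count filter and were tested. Of these, 127 were lower and 8 were higher, with a median of -0.67, beside 33.2% and 32.8% of all 12266 genes tested. A scarce gene can pass the filter through the libraries of a single fraction, so this count can favour genes that are high in the light fraction. The difference between these sets was not tested.

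The same lean towards the light fraction appeared in all 4 lines, each measured with its own libraries. In UAU cells 76 members were lower in the heavy fraction and 22 higher, beside 33.6% and 33.4% of all genes (67% called), with a median of -0.38. In GAUi cells 70 were lower and 16 higher, beside 32.7% and 32.1% of all genes (64.8% called), with a median of -0.40. In isoswitch cells 82 were lower and 13 higher, beside 35.3% and 35.2% of all genes (70.5% called), with a median of -0.53. The KRAB-domain members had 29 lower and 5 higher in UAU, 28 and 4 in GAUi, and 36 and 1 in isoswitch, where the 1 was ZNF268. On chromosome 19 no member was called higher in isoswitch cells and 28 of 43 were lower.

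**Figure D2:**
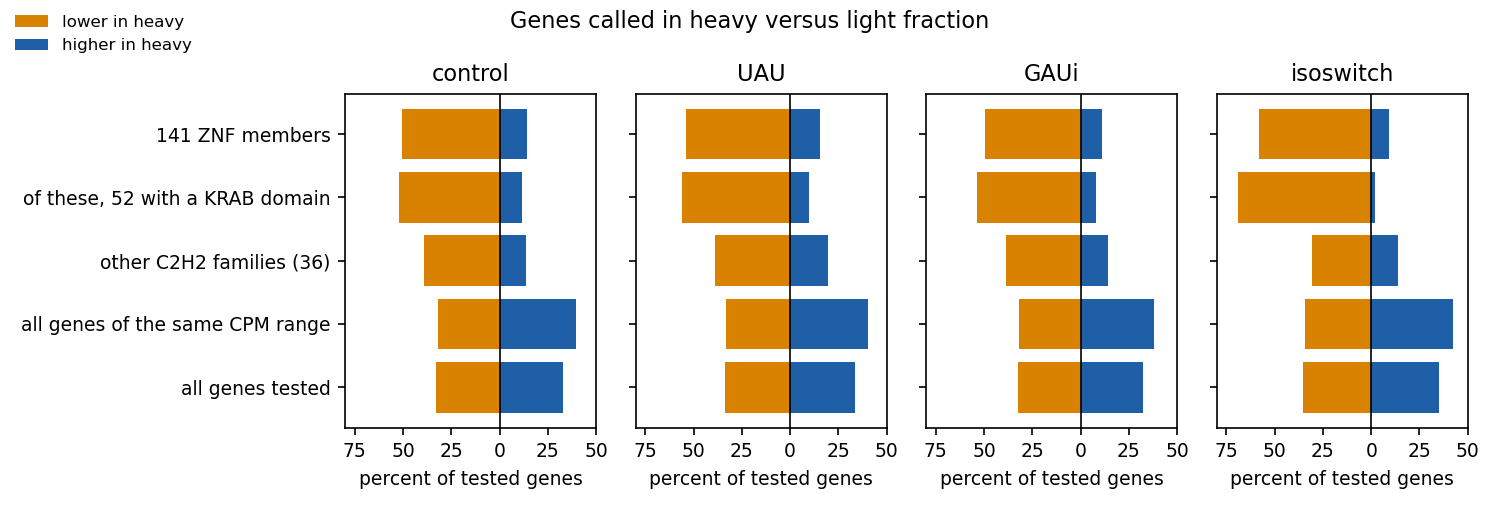
Percent of tested genes called lower (orange, to the left) or higher (blue, to the right) in the heavy than in the light fraction, 1 panel for each line with 3 libraries a fraction. The orange bars of the 141 ZNF genes and of the 52 with a KRAB domain are longer than their blue bars in every panel, while both bars are of nearly equal length for all genes tested.

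Single members kept their place across the lines. There were 59 members lower in all 4 lines, 6 higher in all 4 (ZNF395, ZNF207, ZNF770, ZNF367, ZNF652 and ZNF268) and 15 called in none. Of the 11989 genes tested in every line, 24.2% were lower and 24.8% higher in all 4. The log2 fold changes of the 141 genes had a Pearson r of 0.84 to 0.94 between pairs of lines, which share no library, and all 11989 genes tested in every line had 0.89 to 0.94. ZNF219 was the lowest in every line, at -2.65 in UAU, -3.37 in GAUi and -3.41 in isoswitch, and ZNF358, ZNF271P and ZNF32 were among the 4 lowest in each. ZNF268 ranged from 0.70 in UAU to 1.29 in isoswitch, and ZNF207 from 0.38 in UAU to 1.10 in isoswitch.

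Only ZNF593 and ZNF69 were called in opposite directions in different lines. ZNF593, a factor of pre-ribosomes, had 67.3, 84.2 and 98.6 CPM in the light and 119.1, 109.2 and 110.0 CPM in the heavy libraries of UAU cells. In isoswitch cells the order was reversed, with 102.8, 74.9 and 82.1 CPM in the light and 62.9, 76.1 and 71.5 CPM in the heavy libraries. The log2 fold change was 0.48 in UAU (adjusted p = 0.000696, edgeR), 0.49 in GAUi and -0.35 in isoswitch (adjusted p = 0.00434, edgeR), and the light and heavy libraries of isoswitch overlapped. ZNF69, a KRAB-domain member, had 0.48 in UAU, 0.38 in GAUi and -0.57 in isoswitch. Both were not called in control cells, at 0.23 and 0.19. The change of the heavy-to-light ratio against control was called for neither gene in any line. For ZNF593 it was 0.18 in UAU (adjusted p = 0.669, edgeR), 0.23 in GAUi (adjusted p = 0.717, edgeR) and -0.57 in isoswitch (adjusted p = 0.228, edgeR). The lines with opposite calls were not tested against each other.

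In total RNA few members differed from control. Every level is a share of a bulk library, so a change in the mix of cells and a change of RNA per cell cannot be told apart. Against UAU 2 of 141 were called, beside 0.914% of all genes. ZNF503, a repressor of the same family as ZNF703, had 16.73, 15.99 and 17.6 CPM in control and 23.95, 24.54 and 24.86 CPM in UAU (log2 fold change 0.57, SE 0.12, adjusted p = 0.025, edgeR). ZNF207 had 113.7, 111.3 and 120.4 CPM in control and 83.02, 83.82 and 81.85 CPM in UAU (log2 fold change -0.44, SE 0.10, adjusted p = 0.0328, edgeR). Neither gene overlapped between the lines, but 0 members were called when any 1 of the 6 libraries was left out. In the fit on control and UAU alone 6 were called.

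Against GAUi 12 members were called in total RNA, 5 higher and 7 lower, beside 10.1% of all genes (4.38% higher and 5.72% lower). The higher ones were ZNF180 (0.64), ZNF561 (0.60), ZNF274 (0.50), ZNF503 (0.48) and ZNF772 (0.46), and all but ZNF503 are KRAB-domain members. The lower ones were ZNF322 (-0.82), ZNF720 (-0.67), ZNF398 (-0.60), ZNF277 (-0.54), ZNF703 (-0.51), ZNF608 (-0.50) and ZNF655 (-0.38). KRAB-domain members were among these too, such as ZNF720 and ZNF655. ZNF322 (chr6:26634383-26659746) had 11.4, 13.1 and 12.7 CPM in control and 5.89, 7.57 and 7.79 CPM in GAUi. These groups did not overlap, and the call (SE 0.18, adjusted p = 0.00656, edgeR) stood in all 11 alternative settings. The number of members called was 24 without GAUi library A, and 2, 2 and 4 without control libraries A, B and C. It was 1 in the fit on control and GAUi alone, where all genes called went from 1248 to 329.

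Against isoswitch 3 members were called in total RNA, beside 4.05% of all genes. ZNF655, a KRAB-domain member that binds the signalling protein VAV1, had 70.9, 67.7 and 68.8 CPM in control and 52.5, 47.2 and 45.1 CPM in isoswitch (log2 fold change -0.50, SE 0.11, adjusted p = 0.0106, edgeR). ZNF511 was lower by a log2 fold change of -0.32 and ZNF512B was higher by 0.46. Leaving out any 1 of the 6 libraries left 0 or 1 of them called, and the fit on control and isoswitch alone called 16 members.

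The light fraction differed least. In UAU 0 members were called with edgeR, beside 0.691% of all genes, with 18 at an unadjusted p under 0.05 beside 13.7% of all genes, and 1 called with DESeq2, ZNF22. In GAUi 3 were called, beside 3.4% of all genes: ZNF740 (0.63), ZNF37A (0.38) and ZNF3 (-0.52). In isoswitch ZNF3 and ZNF655 were called, both lower, beside 2.58% of all genes. ZNF3 (chr7:100063837-100082577), a KRAB-domain member whose span overlaps the detected ZSCAN21, had 46.6, 45.3 and 40.8 CPM in control and 26.9, 31 and 25.04 CPM in isoswitch. The groups did not overlap (log2 fold change -0.70, SE 0.13, adjusted p = 0.00533, edgeR), and this call stood in all 11 alternatives. Without control library B the calls were 1 in UAU, 7 in GAUi and 6 in isoswitch. Leaving out any 1 GAUi library gave 0 calls in GAUi, any 1 isoswitch library 1 call in isoswitch, and control library C 1 call in each.

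**Figure D3:**
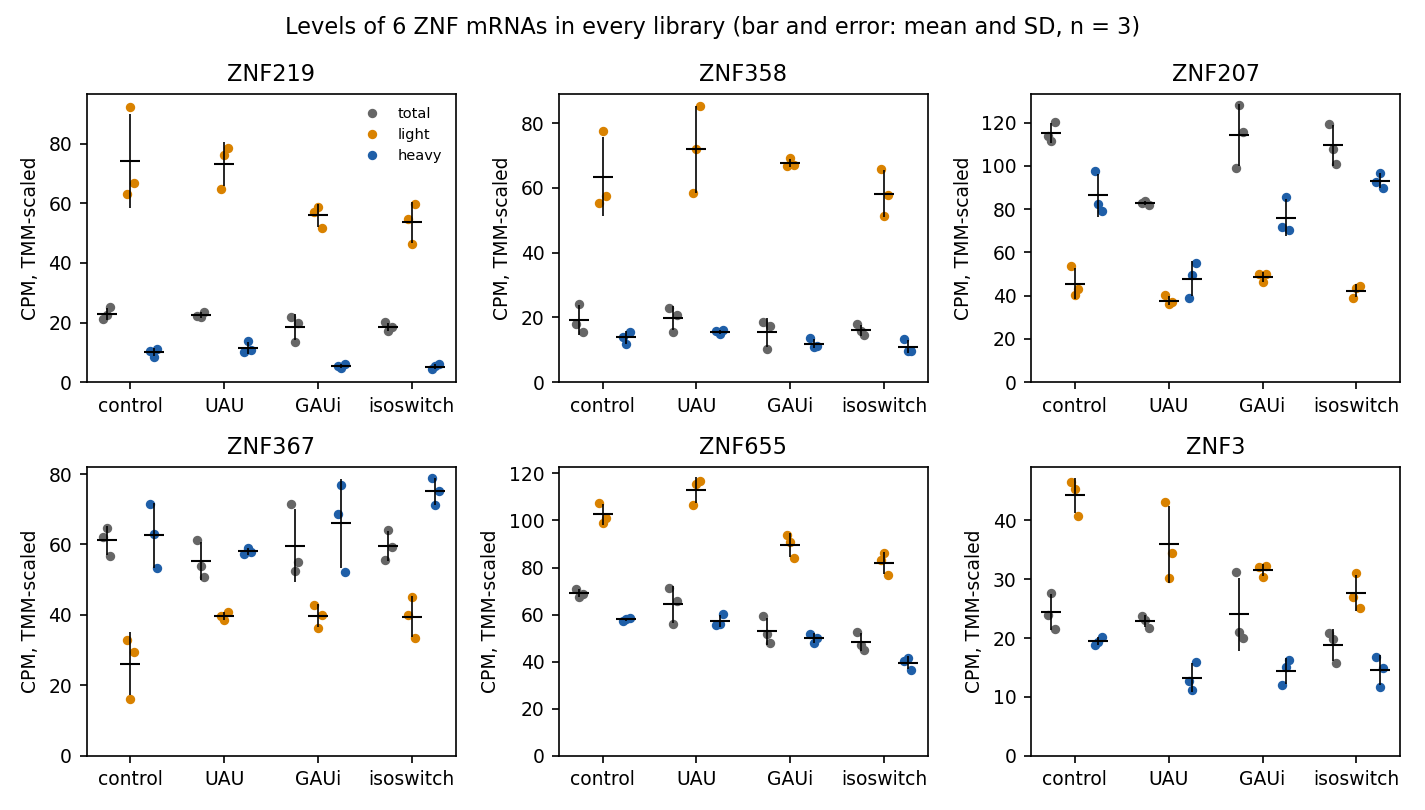
Level of 6 ZNF mRNAs (y, TMM-scaled CPM) in total RNA (grey), light (orange) and heavy (blue) libraries of the 4 lines, 1 point for each library, with the mean and SD of 3. ZNF219 and ZNF358 are highest in the light fraction of every line, ZNF207 and ZNF367 are above their light level in the heavy fraction of each line by the mean, and the mean of ZNF655 and of ZNF3 is lower in isoswitch than in control in each fraction.

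The heavy fraction held most of the differences between lines: 33 members were called in at least 1 line there, beside 15 in total RNA and 4 in the light fraction. Of all genes 37.8% were called in at least 1 line in the heavy fraction, 11.8% in total RNA and 4.69% in the light fraction. In UAU cells 23 members were called, 9 higher and 14 lower, beside 28.7% of all genes (13.1% higher and 15.5% lower). ZNF207 had 97.6, 82.5 and 79.0 CPM in control and 39.0, 49.5 and 55.3 CPM in UAU, and the groups did not overlap. Its log2 fold change was -0.84 (SE 0.11, adjusted p = 9.2e-06, edgeR), beside the -0.44 in total RNA. The change of its heavy-to-light ratio in UAU was not called (-0.53, adjusted p = 0.0559, edgeR). ZNF326, a subunit of a complex that links RNA polymerase II to splicing, had 30.16, 24.95 and 29.06 CPM in control and 15.23, 15.95 and 20.29 CPM in UAU (log2 fold change -0.68, SE 0.14, adjusted p = 0.000604, edgeR). ZNF706, a small protein with 1 finger, was higher, with 44.6, 54.2 and 44.7 CPM in control and 75.5, 78.8 and 59.5 CPM in UAU (log2 fold change 0.59, SE 0.11, adjusted p = 0.000231, edgeR). These 3 calls stood in all 11 alternatives, and none of the 3 had overlapping groups.

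By role, 6 of the 8 members that act on RNA, ribosomes or the spindle were called in the heavy fraction of UAU cells, beside 28.7% of all genes. The role groups were made after the values were seen, so their counts are descriptions and differences between them were not tested. ZNF207, ZNF326, ZNF622 (-0.56) and ZNF830 (-0.43) were lower, and ZNF598 (0.31) and ZNF593 (0.36) were higher. Of the 8 members listed as DNA-binding without a KRAB domain, 4 were lower: ZNF143 (-0.55), ZNF24 (-0.48), ZNF281 (-0.39) and ZNF148 (-0.31). None of these 8 was higher, but the list does not cover all members of that kind. ZNF143 lost its call in 10 of 11 alternatives. Of the 52 KRAB-domain members 3 were higher (ZNF772, ZNF720 and ZNF226) and 1, ZNF3, was lower. The median over all 141 was 0.01, beside 0.00 over all genes. The count was 14 without control library A and 15 without UAU library A.

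In the heavy fraction of GAUi cells 7 members were called, 5 higher and 2 lower, beside 10.1% of all genes (4.66% higher and 5.48% lower). ZNF22, the most abundant member, had 190.0, 183.8 and 180.3 CPM in control and 231.0, 245.1 and 242.7 CPM in GAUi (log2 fold change 0.38, SE 0.08, adjusted p = 0.00187, edgeR). ZNF37A had 73.35, 70.97 and 75.01 CPM in control and 89.2, 95.5 and 98.5 CPM in GAUi (log2 fold change 0.37, SE 0.09, adjusted p = 0.0085, edgeR). Both sets of libraries were apart, and both calls stood in all 11 alternatives. ZNF772 (0.54), ZNF346 (0.39) and ZNF639 (0.32) were also higher and ZNF326 (-0.43) was lower. In this order, their calls were lost in 5, 5, 4 and 6 of the 11 alternatives. ZNF219, the member with the lowest heavy-to-light ratio in control, was at 10.6, 8.46 and 11.1 CPM in control and 5.52, 4.72 and 6.06 CPM in GAUi (log2 fold change -0.88, SE 0.19, adjusted p = 0.00417, edgeR). It was lower in GAUi in the light fraction (-0.43) and total RNA (-0.32) too, though not called. Its change of heavy-to-light ratio was not called (-0.44, adjusted p = 0.498, edgeR). The count was 4 without control library A or without GAUi library A.

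In the heavy fraction of isoswitch cells 9 members were called, 1 higher and 8 lower, beside 11% of all genes (3.67% higher and 7.36% lower). ZNF219 was again lowest, with 4.35, 5.32 and 6.05 CPM in isoswitch, all below the control values (log2 fold change -0.95, SE 0.20, adjusted p = 0.00176, edgeR). Here too it was lower without a call in the light fraction (-0.49) and total RNA (-0.29). The change of its heavy-to-light ratio was not called (-0.44, adjusted p = 0.478, edgeR). ZNF655 had 57.4, 58.1 and 58.7 CPM in control and 40.5, 41.7 and 36.3 CPM in isoswitch (log2 fold change -0.56, SE 0.09, adjusted p = 0.000214, edgeR). ZNF511 had 79.5, 70.8 and 76.3 CPM in control and 44.4, 59.7 and 57.3 CPM in isoswitch (log2 fold change -0.50, SE 0.10, adjusted p = 0.00183, edgeR). For each of the 3 the groups did not overlap and the call stood in all 11 alternatives, though ZNF511 shares its span with the detected TUBGCP2. ZNF721 (-0.46), ZNF212 (-0.43), ZNF428 (-0.40), ZNF593 (-0.35) and ZNF703 (-0.32) were also lower, and ZNF268 (0.38) was higher. The median over the 141 was -0.08 and 90 of them lay below 0, beside 0.00 for all genes. The count was 5 without isoswitch library A. The summed level of the 18 small nucleolar RNA host genes, listed as non-coding, was 1195 ± 144 CPM in these libraries and 1561 ± 35.2 CPM in control (SD, n = 3). Of the 18, 10 were lower, and the part of this set in the result was not tested.

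**Figure D4:**
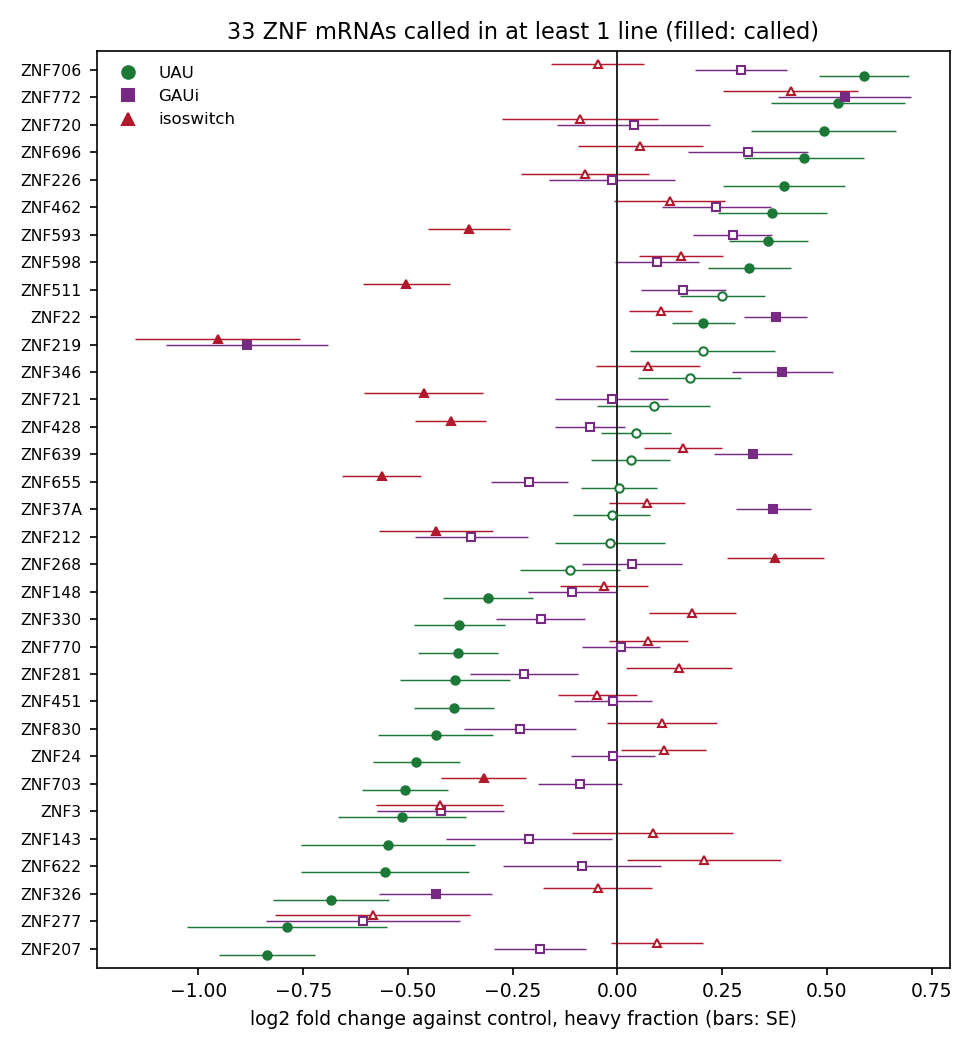
Log2 fold change against control in the heavy fraction (x, bars are SE, 3 libraries a line) for the 33 ZNF mRNAs called in at least 1 line, in UAU (circles), GAUi (squares) and isoswitch (triangles), filled where called. ZNF207 is lowest in UAU at -0.84, and ZNF219 lies near -0.9 in GAUi and isoswitch and above 0 in UAU.

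No member was called in the same direction in all 3 lines of any fraction. Those called alike in 2 lines were ZNF503 (higher) and ZNF655 (lower) in total RNA, ZNF3 (lower) in the light fraction, and ZNF22 and ZNF772 (higher) and ZNF703, ZNF326 and ZNF219 (lower) in the heavy fraction. ZNF219 kept both its calls in all 11 alternatives. ZNF503 lost its UAU call in 6 of 11 and ZNF3 its GAUi call in 5. ZNF326 and ZNF772 lost their GAUi calls in the heavy fraction in 6 and 5. The 3 lines were compared with the same control libraries, so these calls are not independent. Over the 9 comparisons of a line with control, 42 members were called at least once and 99 never, beside 43.1% of all genes called at least once. The highest line mean exceeded the lowest by a median of 1.22-fold in total RNA, 1.25-fold in the light and 1.29-fold in the heavy fraction. The widest ratios were 1.77 for ZNF720 in total RNA, 1.60 for ZNF3 in the light fraction and 2.20 for ZNF219 in the heavy fraction.

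The change of loading itself, the heavy-to-light ratio in a line over that in control, was called for 3 members in UAU, beside 6.53% of all genes. ZNF622 had the largest change, with 8.49, 7.93 and 10.5 CPM in the light and 4.94, 7.27 and 9.26 CPM in the heavy libraries of UAU, where control had more in each heavy library than in any light library (log2 change -1.03, SE 0.29, adjusted p = 0.0304, edgeR). ZNF770 followed with -0.50 (SE 0.15, adjusted p = 0.0389, edgeR) and ZNF24 with -0.48 (SE 0.14, adjusted p = 0.0378, edgeR). None of the 3 calls stood in all 17 alternatives. The count was 0 without control light library C, control heavy library A, UAU light library C, UAU heavy library A or UAU heavy library B, 1 without UAU light library B or control heavy library B, and 5 without control light library A or UAU heavy library C. In the fit on control and UAU alone it was 0.

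In GAUi 0 members were called for this ratio, beside 0.196% of all genes, with 9 at an unadjusted p under 0.05, all lower, and 0 of the 47 to which DESeq2 gave an adjusted p. Of all genes, 11.9% passed the unadjusted limit in GAUi and 5.45% did so as lower. In isoswitch 0 were called, beside 0.00784% of all genes, with 17 at an unadjusted p under 0.05, all lower, and 0 of the 57 to which DESeq2 gave an adjusted p. Of all genes, 12.6% passed the unadjusted limit in isoswitch and 7.18% did so as lower. The median log2 change of the 141 in isoswitch was -0.12 with 99 below 0, beside 0.00 over all genes, and the KRAB-domain members had a median of -0.20 with 42 of 52 below 0. Without control light library B, which stands apart, 7 members were called in isoswitch, all lower, while 345 of 12928 genes tested were lower and 124 higher. Without isoswitch heavy library B 1 member was called. The smallest p in isoswitch belonged to ZNF740 (log2 change -0.71, SE 0.20, adjusted p = 0.139, edgeR), ZNF629 (-0.75) and ZNF569 (-0.74).

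The partners of the KRAB domain were called in both directions. Of the 29 tested genes listed as KRAB corepressor and heterochromatin factors, which include the member ZNF274, 14 were lower and 8 were higher in the heavy fraction of control cells, with a median log2 fold change of -0.25. Among all genes tested 33.2% were lower and 32.8% were higher. TRIM28, which the KRAB domain binds, was at 46.5 ± 10.4 CPM in the light and 48.1 ± 5.25 CPM in the heavy fraction of control cells (SD, n = 3) and was not called. The histone methyltransferase SETDB1 fell by 1.22 (adjusted p = 0.000484, edgeR), while the heterochromatin protein CBX5 was higher by 1.91 and CBX3 by 1.41. Against control, 2 of the 29 genes were higher and 1 lower in total RNA of GAUi, beside 4.38% and 5.72% of all genes. TRIM28 was higher there (log2 fold change 0.40, adjusted p = 0.0199, edgeR), and CBX3 was lower (-0.80, adjusted p = 0.000408, edgeR). The summed level of the 30 listed genes was 4749 ± 64.6 CPM in control and 3954 ± 261.3 CPM in GAUi total RNA (SD, n = 3). Such a sum follows its most abundant genes, and the part of CBX3 in this difference was not separated. CBX3 was also lower in isoswitch, by a log2 fold change of -0.53 in total RNA and -0.54 in the heavy fraction. TRIM28 was lower in the heavy fraction of UAU (-0.66, adjusted p = 0.000337, edgeR), at 30.03 ± 5.094 CPM. HDAC1 (-0.76) and HDAC2 (-0.58) were lower in the heavy fraction of UAU as well. In that fraction 4 of the 29 genes were lower and 3 higher, beside 15.5% and 13.1% of all genes.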

How the data were processed

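The 36 libraries were 3 replicates of each of 12 groups (4 lines, 3 fractions), made with the Lexogen QuantSeq 3' kit from 500 ng RNA per the labels' protocols. The deposited values are raw read counts per gene symbol. Per the submitters' processing notes, the genome was hg38 and the tools included STAR, featureCounts and DESeq2. Their versions, the annotation and the strand setting were not given in the sources used here. Nothing in the labels says that replicates A, B and C came from separate cultures, so p-values measure the spread between these libraries, which may be technical.

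The counts were tested with edgeR 4.0.16 in R 4.3.3 (quasi-likelihood test, TMM scaling, filterByExpr, Benjamini-Hochberg adjustment over all genes tested, called under 0.05). Heavy was compared with light in a fit of each line's fractions, each line with control within a fraction's 12 libraries, and the change of the heavy-to-light ratio in a fit over both fractions (24 libraries). SE was the log2 fold change over the square root of F. Alternatives were DESeq2 1.42.0, RLE scaling, no filter, a replicate block, a fit on the contrast's groups alone, other CPM limits and leaving out each library. The procedure was tested on simulated data.

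The members and all lists were chosen with earlier results of these data known, and the role groups after the values were seen. Named by rule were the 10 most abundant members, the 3 on each side of the limit, the 8 highest and 8 lowest called members of heavy against light in control whose libraries do not overlap, the 5 highest and 5 lowest called in each other comparison (with none called, the 3 smallest p), members called in all 3 lines, and TRIM28, SETDB1 and up to 3 other corepressors. Other names were chosen after their values were seen. Groups planned from protein sequences (a KRAB signature, numbers of fingers, isoleucine content) were not run, since no protein table was used here.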

Additional observations from a re-analysis of the deposited data

Results flagged for a closer look

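In 3 members the change between heavy and light fraction differed between UAU and control by the interaction test over all genes (edgeR). The log2 difference of the heavy-to-light ratio, UAU over control, was -1.03 for ZNF622, -0.50 for ZNF770 and -0.48 for ZNF24. ZNF622 was called higher in the heavy fraction of control cells (0.69), and ZNF24 was not called there (-0.20). None of the 3 calls stood in every alternative: ZNF622 lost its call in 7 of 17, ZNF24 in 10 of 17 and ZNF770 in 11 of 17.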

How the results depend on the processing

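Of the named calls, 49 of 51 between heavy and light, 11 of 43 between a line and control and 0 of 3 of the ratio stood in every alternative. With each library left out in turn, the members called between heavy and light were 82 to 97 in control, 91 to 94 in UAU, 77 to 81 in GAUi and 92 to 96 in isoswitch. Against control in total RNA they were 0 to 0 in UAU, 2 to 24 in GAUi and 0 to 1 in isoswitch, in the light fraction 0 to 1, 0 to 7 and 1 to 6, in the heavy fraction 14 to 21, 4 to 6 and 5 to 10, and for the ratio 0 to 5, 0 to 0 and 0 to 7.

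The labels do not say that replicate letters pair libraries. Same-letter correlations of deviations from group means were -0.51 to 0.34 between lines and -0.36 to 0.22 between fractions, and correlations of different letters were -0.45 to 0.51. In 0 of 30 pairs of groups were all 3 same-letter values over 0.1, and in 3 each of them exceeded every other-letter value, a hint from the data only. With the replicate block, 1 member was called in UAU total RNA, 1 in isoswitch total RNA, 0 in GAUi light and 1 in isoswitch light, and 86 of all genes became 22 in UAU light. Other counts moved by less than 1.5 times under the block.

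In fits on the contrast's groups alone, members called in total RNA were 6 in UAU, 1 in GAUi and 16 in isoswitch, in isoswitch light 1 and for the UAU ratio 0. DESeq2 called 1 in UAU light, 8 in GAUi light and 5 in isoswitch heavy. Without the filter the counts were 2, 9 and 4 in light UAU, GAUi and isoswitch, and 2 for the isoswitch ratio. RLE scaling called 1 for the UAU ratio. The median log2 fold change of heavy against light in control was -0.29 without the filter, -0.50 for members from 5 CPM and -0.41 from 20 CPM. For this median the block and the fit on the groups alone were added after seeing the data, and it moved by less than its spread. The cause of these shifts was not tested.

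Counts over all genes also moved. They went from 113 to 186 with DESeq2, 236 without the filter and 916 on the groups alone in UAU total RNA, from 1248 to 329 in GAUi and from 500 to 1898 in isoswitch on the groups alone. In the light fraction 86 in UAU became 177 with DESeq2, 339 without the filter and 0 on the groups alone, 423 in GAUi became 743 without the filter and 271 on the groups alone, and 321 in isoswitch became 538 and 105. For the ratio 833 in UAU became 226 on the groups alone, 25 in GAUi became 259 with DESeq2, 44 with RLE and 103 without the filter, and 1 in isoswitch became 134 with DESeq2 and 215 without the filter. With 1 library left out, all genes called were 25 to 43 in UAU, 531 (without control B) to 2134 (without GAUi A) in GAUi and 194 to 268 in isoswitch total RNA. In the light fraction they were 6 (without UAU B) to 209 in UAU, 177 (without GAUi A) to 760 in GAUi and 127 (without isoswitch A) to 675 in isoswitch, each highest without control B. In the heavy fraction they were 2371 to 3809, 563 (without GAUi A) to 980 and 651 (without isoswitch A) to 1333. For the ratio they were 367 to 1189 (without UAU heavy A and C), 0 to 190 and 0 to 469, the last 2 highest without control light B. Without control light B isoswitch light split into 348 higher and 327 lower, from 120 and 201. The UAU ratio split into 407 higher and 426 lower, and into 506 and 319 with RLE scaling. Depth limits the scarcest members, the lowest having 18 counts in a library.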
